A study of Mus musculus with 30 samples.

Results

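Endothelial cells and tumour-associated macrophages sorted from the same mouse mammary tumours were compared gene by gene, in 20 of the 30 RNA-seq libraries of the study. The 20 libraries are those of the sorted endothelial population (5 libraries) and of 3 macrophage populations (15 libraries), 1 of each from each of 5 tumours, while the libraries of cancer-associated fibroblasts were left out. All mice carried the MMTV-PyMT transgene, FVB/N-Tg(MMTVPyVT)634Mul/J, in which the mouse mammary tumour virus promoter drives the polyoma middle T antigen in mammary epithelium, and no mouse without a tumour enters the comparison. Tumours were taken at 750 mm3 and are numbered 5, 6, 8, 10 and 11 as in the labels, which state no further treatment for these groups. Endothelial cells were sorted as CD45- CD31+. Macrophages were sorted as CD45+ F4/80+ and split by the mannose receptor CD206 and MHC class II into a population with CD206 and low MHC class II (called CD206hi here), one without CD206 and with low MHC class II (CD206neg) and one with CD206 and high MHC class II (CD206pos). The question answered is how far the transcriptome of tumour endothelium differs from that of the macrophages beside it, and which genes the lineages share. The contrast was the endothelial level minus the mean of the 3 macrophage populations on the log2 scale, each population weighing the same, with the tumour as a block.

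Endothelial cells line blood and lymph vessels; they are held together by junction proteins such as CD31 and VE-cadherin, lie on a basement membrane of laminins and type IV collagen, and read angiogenic ligands through the VEGF, angiopoietin, Notch and apelin receptors. Macrophages are phagocytes that depend on the receptor for colony-stimulating factor 1, take up and degrade cells and particles in lysosomes, present peptides on MHC class II and release cytokines and chemokines. Both lineages rely on transcription factors of the ETS family, with Erg and Fli1 known for endothelium and PU.1, the product of Spi1, for macrophages, and both clear material from blood through scavenger receptors.

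The libraries held 8012298 to 10715471 counts in the endothelial group and 6292411 to 9892472 in the macrophage groups, so that 3 counts stood for at most 0.289 and 0.692 in CPM (counts scaled to a fixed library total). Levels are CPM scaled by TMM factors, not divided by gene length, and serve to compare 1 gene between libraries only. The 50 highest genes of a library took 17.0% to 27.8% of its counts in endothelial libraries and 27.8% to 52.8% in macrophage libraries. Scaling by library totals alone therefore raised the median log2 fold change of all genes by 0.77. The endothelial library of tumour 8 had the lowest value of the 5 for Pecam1, Fli1, Emcn, Robo4, Plvap, Tek, Eng, Igfbp7 and Kdr and the highest sums of pericyte and fibroblast markers, and without it 4292 genes were higher and 3435 lower, against 4379 and 3522 with it. In 2 libraries labelled CD206neg, those of tumours 6 and 8, the data columns are named for high MHC class II. The labels were followed, and without both libraries 4430 genes were higher and 3545 lower.

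Of 12463 genes tested, 7901 (63.4%) differed between endothelial cells and the macrophage mean at an adjusted p under 0.05 (edgeR's quasi-likelihood F test, Benjamini-Hochberg), 4379 (35.1%) higher and 3522 (28.3%) lower in endothelial cells. At least 16-fold differences were found for 1011 genes on the endothelial side and 655 on the macrophage side. In 3510 genes (28.2%) all 5 endothelial libraries lay outside the range of the 15 macrophage libraries. The median log2 fold change of all genes tested was 0.10. Counts of list members given below are to be read beside the 35.1% higher and 28.3% lower of all genes tested.

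**Figure D1:**
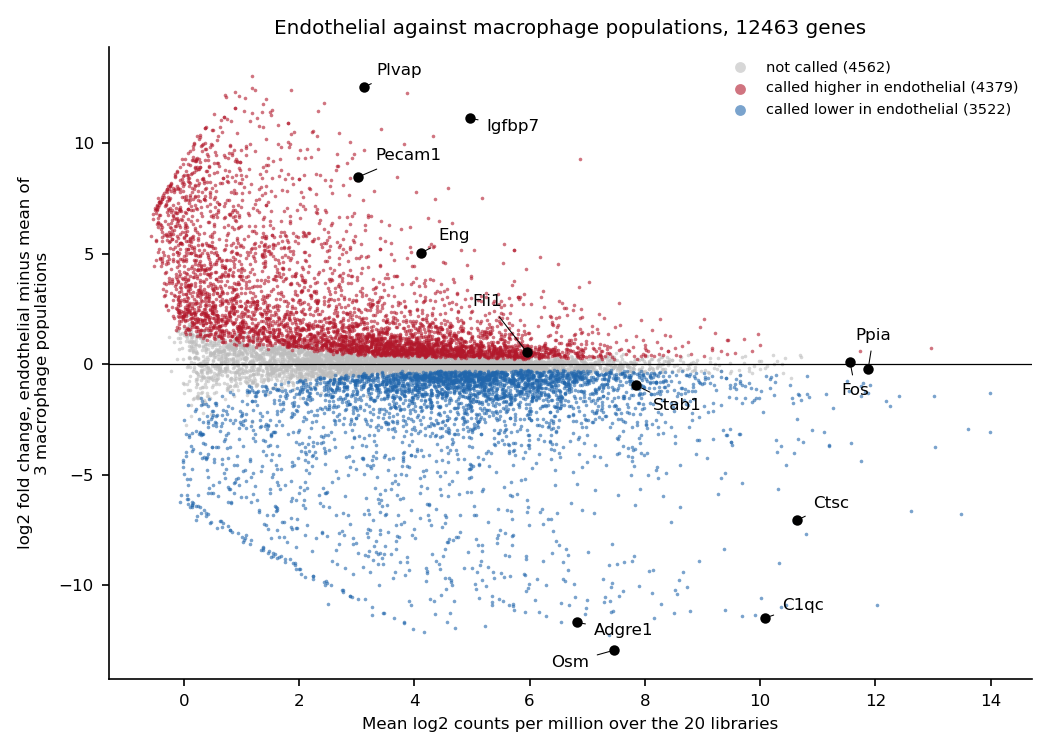
log2 fold change (endothelial minus the mean of the 3 macrophage populations) of 12463 genes against their mean log2 CPM over 20 libraries, with genes called higher in red (4379), called lower in blue (3522) and not called in grey (4562). Plvap and Igfbp7 stand at the top and Osm and C1qc at the bottom, while Ppia and Fos, among the highest genes at a similar level, lie next to 0; fold changes of genes near 0 counts on one side, which form the slanted edges, depend on the prior count.

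The genes of the markers that separate the lineages in the sort, CD31, CD45 and F4/80, followed the gates. Pecam1, which encodes CD31 (chr11:106654213-106715281, GRCm38.p6), was at 829, 779, 259, 593 and 722 CPM in the endothelial libraries of tumours 5, 6, 8, 10 and 11, against 0.196 to 5.19 CPM (median 1.68) in the 15 macrophage libraries. The library of tumour 8 was the lowest of the 5, and no macrophage library came near it. The log2 fold change was 8.48 ± 0.43 (SE, adjusted p = 3.7e-12, edgeR). Ptprc, which encodes CD45, was at 0 to 0.307 CPM in endothelial libraries and at 242 to 459 CPM (median 366) in macrophage libraries, a log2 fold change of -11.23 ± 0.38. Adgre1, which encodes F4/80, was at 0, 0.289, 0.216, 0.0766 and 0.408 CPM in the endothelial libraries and at 341 to 1047 CPM (median 695) in the macrophage libraries, and fell by 11.69 on the log2 scale (SE 0.41, adjusted p = 2.4e-14, edgeR). All 3 genes separated the lineages without overlap.

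Mrc1, which encodes CD206, was at 0.539 ± 0.447 CPM (SD, n = 5) in endothelial cells, 1110 in CD206hi, 82.3 in CD206neg and 1284 in CD206pos. An MHC class II chain gene, H2-Aa, was at 0.744 to 6.92 CPM in endothelial libraries. In the libraries labelled CD206neg it was at 17.2, 13710, 2911, 488 and 530 CPM in tumours 5, 6, 8, 10 and 11. The highest of these are the libraries whose columns are named for high MHC class II, and the call for H2-Aa (log2 fold change -8.52 ± 1.01) held without them.

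**Figure D2:**
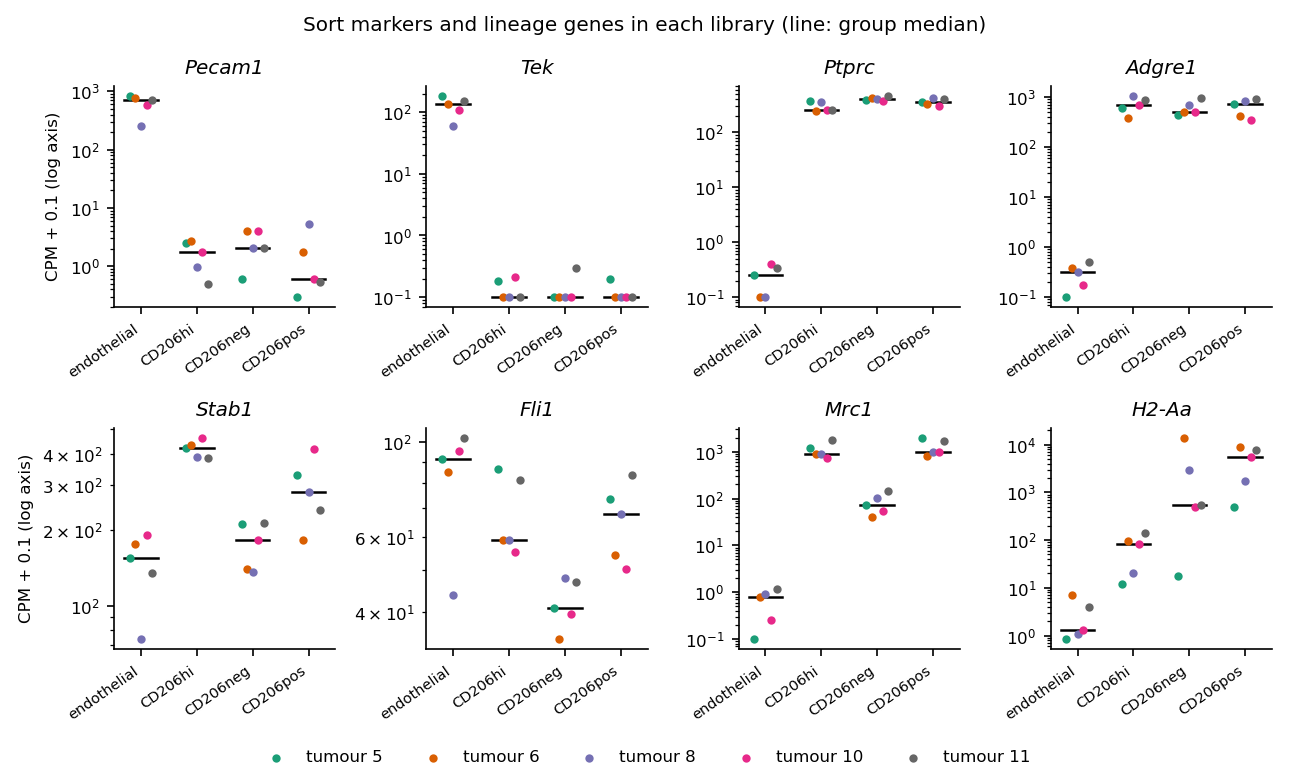
CPM plus 0.1 on a log axis in each of the 20 libraries for 8 marker genes, 1 panel a gene, coloured by tumour, with a line at the median of each group. Pecam1 and Tek are high only in the endothelial group, Ptprc, Adgre1, Mrc1 and H2-Aa only in macrophage groups, and Stab1 and Fli1 overlap between the lineages.

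Stab1 and Fli1 marked both lineages. Stab1 encodes stabilin-1, a scavenger receptor described in sinusoidal endothelium and in alternatively activated macrophages (chr14:31139017-31168651). It was at 155, 176, 73.6, 190 and 135 CPM in the endothelial libraries and at 136 to 462 CPM (median 284) in the macrophage libraries, so the ranges overlapped. Relative to the macrophage mean Stab1 fell by 0.95 on the log2 scale (SE 0.18, adjusted p = 0.000145, edgeR). The difference lay with CD206hi (-1.56 ± 0.21) and CD206pos (-1.01 ± 0.21), while against CD206neg it was -0.29 ± 0.21 and did not pass (adjusted p = 0.24, edgeR). Fli1, an ETS factor of endothelial and haematopoietic cells (chr9:32422204-32543432), was at 91.3, 85.0, 43.7, 95 and 102 CPM in endothelial libraries and at 34.4 to 86.4 CPM (median 55.1) in macrophage libraries. The endothelial library of tumour 8 fell among the lower macrophage values, that of tumour 6 just under the highest, and the other 3 lay above all 15. Fli1 was called higher by 0.54 ± 0.15 (adjusted p = 0.00353, edgeR), a difference with an interval inside 2-fold. Under scaling by library totals both kept their direction, but Stab1 lost its call (-0.19, adjusted p = 0.41, edgeR) and Fli1 was higher by 1.31, more than 2-fold.

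The endothelial side of the comparison was led by vessel wall, lipid uptake and matrix genes. All 24 genes of the pan-endothelial list were higher, with a median log2 fold change of 10.54, or 8.78 with the 7 members at no more than 3 counts in any macrophage library set at that floor, against 0.10 over all genes tested. Plvap, which forms the diaphragms of fenestrated capillaries, was at 4314, 7720, 1803, 4204 and 4900 CPM in the endothelial libraries and at 0 to 4.15 CPM in the macrophage libraries, a log2 fold change of 12.54 ± 0.43 (adjusted p = 1.8e-14, edgeR). The other 9 largest differences among genes with a mean of at least 2 counts on the lower side were those of Igfbp3 (12.28 ± 0.43), Gpihbp1 (11.82 ± 0.32), Esam (11.46 ± 0.26), Igfbp7 (11.14 ± 0.39), Cdh13 (10.92 ± 0.32), Stc1 (10.91 ± 0.36), Col4a2 (10.64 ± 0.31), Aqp1 (10.55 ± 0.38) and Col18a1 (10.51 ± 0.31). They encode binding proteins of insulin-like growth factors, the anchor of lipoprotein lipase on capillaries, a junction protein, a cadherin, a hormone, a water channel and matrix collagens. None of these genes overlapped between the lineages.

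In 62 genes no macrophage library held more than 3 counts while every endothelial library was at 10 CPM or above. The highest was Emcn, the vessel sialomucin endomucin, at 969, 891, 297, 789 and 919 CPM. Ushbp1 averaged 307 CPM, Robo4, a guidance receptor of vessels, 215 CPM, Esm1, a tip cell proteoglycan, 207 CPM and Tmem252 190 CPM. Tek, the angiopoietin receptor, was at 183, 135, 60.0, 108 and 150 CPM with at most 0.199 CPM in a macrophage library. Macrophages that carry this receptor are described in tumours; in these 3 bulk populations the transcript stayed at or below 1 count a library.

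Basement membrane genes were higher in all 14 of 14 tested members (median 9.32). Col4a1, a chain of type IV collagen, was at 4343 ± 1523 CPM in endothelial cells against 0.864 to 9.69 CPM in macrophages. Of the 20 members of the arterial and tip cell list 19 were higher (median 8.32, or 7.20 with 5 members at the floor). Despite its name the list also holds genes known from veins and venules. These are Ackr1, Nr2f2, Ephb4 and the selectins Selp (10.48 ± 0.42) and Sele (9.38 ± 0.44), all higher. Other higher members were the Notch ligand Dll4 (268 ± 110 CPM) and the peptide ligand Apln (9.31 ± 0.38). The exception, the chemokine receptor Cxcr4, was at 22.8, 17.6, 5.01, 19.8 and 8.72 CPM in endothelial libraries and 12 to 31.2 CPM in macrophages. Its call (-0.57 ± 0.25, adjusted p = 0.0493, edgeR) was lost under 23 of 36 alternatives, and its direction turned under library totals (0.14).

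Of 20 endothelial transcription factors 18 were higher (median 7.62, or 5.72 with 6 members at the floor). Sox7, Sox17 and Sox18, which act together in vessel formation, averaged 242, 85.6 and 327 CPM and did not exceed 1.02 CPM in any macrophage library. Klf2, a factor induced by flow, was at 269, 518, 107, 362 and 241 CPM in endothelial libraries and 82.7 to 904 CPM in macrophage libraries, a log2 fold change of 0.04 ± 0.30 that did not pass. Klf2 and Klf4 were the members that were not called.

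Of 24 receptors of growth factor, Notch and angiopoietin signalling 22 were higher (median 4.50). Among them were the VEGF receptors Kdr (8.08 ± 0.31) and Flt1 (10.34 ± 0.49). The co-receptors Nrp1 (0.47 ± 0.19) and Nrp2 (0.67 ± 0.15) were higher by less than 2-fold, and Tgfbr2 (-1.22 ± 0.19) and Cxcr4 were the members that were lower. With library totals as the scaling, Nrp1 (1.22) and Nrp2 (1.45) were higher by more than 2-fold. Nrp1 lost its call under 17 of 36 alternatives, among them single endothelial libraries of tumours 5, 6 and 10 left out.

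Among 16 genes of capillary lipid uptake 13 were higher (median 7.32, or 5.08 with 2 members at the floor), with the caveolar coat genes Cavin2 (9.32 ± 0.35) and Cavin3 (9.70 ± 0.28) beside Gpihbp1. Lipoprotein lipase itself went the other way. Lpl was at 18.9, 2.40, 28.0, 13.6 and 12.7 CPM in endothelial libraries and at 36.9 to 399 CPM (median 185) in macrophage libraries, without overlap, and fell by 3.49 on the log2 scale (SE 0.40, adjusted p = 3.5e-07, edgeR). Cd36, a fatty acid and thrombospondin receptor, was at 57.7, 56.5, 86.9, 149 and 165 CPM in endothelial libraries and 12.5 to 167 CPM in macrophages, and was called higher by 1.55 ± 0.36, a call lost without the tumour block (adjusted p = 0.0768, edgeR).

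Lymphatic genes were thin in this gate. Prox1, the factor that sets lymphatic identity, was at 2.74 ± 1.57 CPM in endothelial cells and at most 0.443 CPM in a macrophage library. Flt4, a VEGF receptor also made by angiogenic blood vessels, was at 76.5 ± 27.9 CPM. Of 6 members tested 3 were higher (Flt4, Nts and Prox1) and 2 lower, Pdpn (-4.31 ± 0.47) and Fgl2 (-3.89 ± 0.43).

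Markers of other cells of the tumour rose with the endothelial side. The summed CPM of 16 luminal epithelial markers was 925, 5097, 1426, 396 and 4018 in the endothelial libraries of tumours 5, 6, 8, 10 and 11, against 44.4 to 1495 (median 221) in macrophage libraries, and 16 of 16 were higher. Of 14 pericyte and smooth muscle markers 10 were tested and 9 were higher, with sums of 1696, 685, 2283, 969 and 814 against 10 to 46.1. Fibroblast markers, 8 of 10 tested higher, summed to 1055, 294, 1231, 176 and 499 against 34.2 to 106, and 5 of 5 tested myoepithelial markers were higher, with sums of 1144, 141, 886, 72.4 and 141 against 2.88 to 28.1. No marker of these 4 lists was at 3 counts or fewer in every library. Mcam of the pericyte list is also a member of the arterial and tip cell list, and Acta2 counts in both the pericyte and the myoepithelial sums. Epcam (208 ± 144 CPM), Krt14 (163 ± 219), Rgs5 (179 ± 233) and Col1a1 (58.8 ± 44.6) varied widely between endothelial libraries. Sums of the 2 T, NK and B cell markers in the matrix analysed were at most 1.56 CPM in endothelial and 20.9 to 47.6 CPM in macrophage libraries. Of 7 dendritic cell markers tested, 2 were higher, Clec9a (1.83 ± 0.80 CPM in endothelial cells) and Zbtb46 (21.9 ± 3.51 CPM), and 4 were lower, with sums of 25.5 to 38.3 against 12.2 to 417 CPM. Of 5 neutrophil and mast cell markers tested, 2 were higher, Kit (5.60 ± 0.53) and S100a8 (1.69 ± 0.48), and 1 was lower, with sums of 27.8 to 83.6 against 32.3 to 125 CPM. Of 5 red cell and platelet markers tested, 3 were higher, the haemoglobin genes Hba-a2 (3.98 ± 0.63) and Hbb-bs (3.74 ± 0.65) and the platelet integrin gene Itga2b (4.74 ± 0.50). The platelet chemokine gene Pf4, at a macrophage median of 705 CPM, was lower (-6.74 ± 0.45), and the sums were 43.9 to 347 against 53.5 to 2063 CPM. Pericytes and fibroblasts also make basement membrane and matrix genes, and the part of any of these cells in the endothelial calls was not tested. In bulk libraries more cells of a type and more RNA per cell cannot be told apart.

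**Figure D3:**
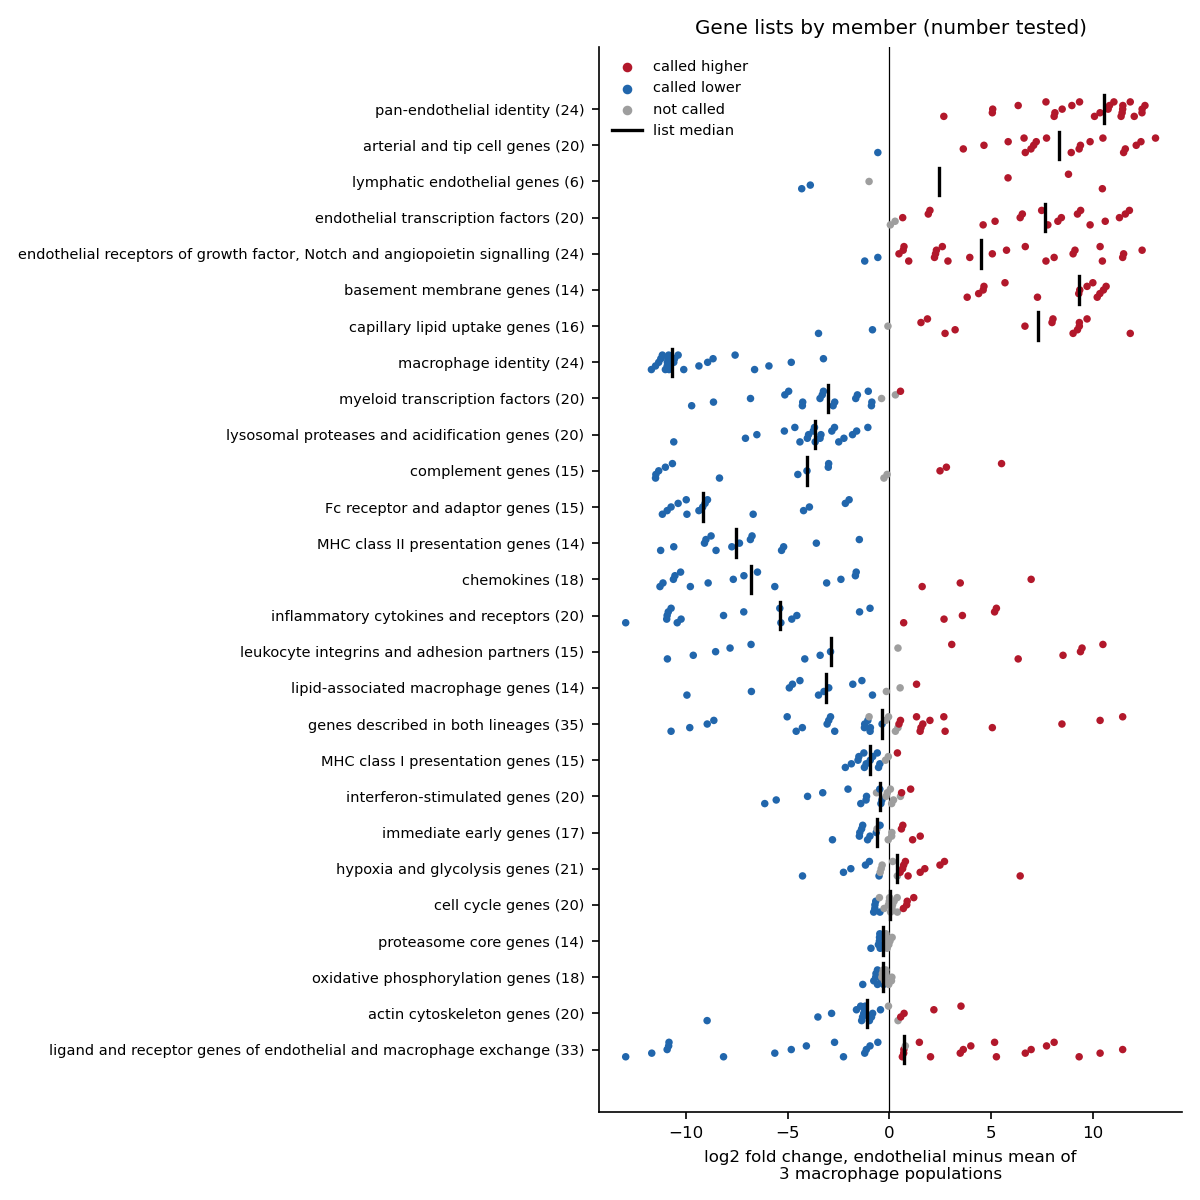
log2 fold change (endothelial minus the mean of the 3 macrophage populations) of each tested member of the gene lists named beside the axis, red for called higher, blue for called lower and grey for not called, with a bar at the list median. Endothelial lists lie to the right and macrophage lists to the left, while proteasome, oxidative phosphorylation and cell cycle genes lie within a few units of 0; with library totals as the scaling the medians of the oxidative phosphorylation, proteasome, interferon, immediate early and shared lists turn positive.

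The macrophage side was led by cytokine, complement and phagocytic receptor genes. All 24 genes of the macrophage identity list were lower in endothelial cells (median -10.69, or -10.57 with 1 member at the floor). Osm, the cytokine oncostatin M, was at 0.0744, 0.481, 0, 0.0766 and 0.163 CPM in endothelial libraries and 377 to 2842 CPM (median 1265) in macrophages, a log2 fold change of -12.95 ± 0.51 (adjusted p = 9.5e-14, edgeR). It averaged under 2 counts in endothelial libraries. Among genes above that mean the 10 largest differences were those of Fcrls (-12.25 ± 0.62), Adgre1, Lyz1 (-11.68 ± 0.56), C1qc (-11.49 ± 0.61), C5ar1 (-11.47 ± 0.62), Cd83 (-11.40 ± 0.60), C1qa (-11.33 ± 0.57), Ccr1 (-11.31 ± 0.53), Ccl3 (-11.27 ± 0.46) and Lilr4b (-11.24 ± 0.49). Adgre1 aside, these encode an Fc receptor-like scavenger protein, lysozyme, subunits of complement C1q, the receptor of complement C5a, an activation marker, a chemokine receptor, a chemokine and a leukocyte immunoglobulin-like receptor, whose near-identical copy Lilrb4a (-11.15 ± 0.42) may share reads with it. No endothelial library reached the lowest macrophage library in any of them.

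C1qc, at 8006 CPM at the macrophage median, was at 0.744, 13.7, 1.19, 1.69 and 3.02 CPM in the endothelial libraries of tumours 5, 6, 8, 10 and 11. The library of tumour 6 was the highest of the 5 for C1qc and also for H2-Aa (6.92 CPM) and Csf1r (2.60 CPM). In 40 genes no endothelial library held more than 3 counts while every macrophage library was at 10 CPM or above. The highest of these were the lectin gene Clec4a3 (292 CPM on average), the inflammasome sensor Nlrp3 (239 CPM), the adhesion ligand Cd48 (201 CPM), the proton-sensing receptor Gpr65 (178 CPM) and Clec4a2 (173 CPM).

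All 15 Fc receptor and adaptor genes, all 14 MHC class II presentation genes and all 20 lysosomal genes were lower in endothelial cells, with medians of -9.17, -7.55 and -3.67 (the first and second -9.05 and -6.79 with members at the floor). Among the lysosomal genes the cysteine protease Ctss (-10.59 ± 0.59) stood at 5.53 ± 5.55 CPM in endothelial cells, whereas Ctsl, a protease of the same family, was at 230 ± 33.1 CPM and differed by -1.06 ± 0.21, a call lost under library totals. Ctsc, which activates serine proteases of leukocytes, was at 61.0, 25.8, 155, 6.82 and 22.9 CPM in endothelial libraries and 2797 to 12042 CPM in macrophages (-7.07 ± 0.62).

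Complement split by role. Of 15 members tested 10 were lower, led by C1q chains and the C5a receptor, while 3 regulators were higher, the C1 inhibitor Serping1 (5.50 ± 0.55), Cd55 (2.79 ± 0.48) and Cd59a (2.48 ± 0.25), which protect cells from complement. Serping1 varied widely between endothelial libraries (117 ± 117 CPM).

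Of 20 myeloid transcription factors 17 were lower (median -3.01), led by Spi1 (-9.71 ± 0.31), Irf5 (-8.64 ± 0.30) and Tfec (-6.82 ± 0.50), and Fli1 was the member that was higher. Elf1, an ETS factor, was at a similar level (0.29 ± 0.14), but was higher by 1.06 under library totals.

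The RefSeq promoter table (GRCm38.p6) was searched for the core bound by PU.1, GAGGAAGT, a core bound by many ETS factors, CCGGAAGT, and the AP-1 motif TGANTCA, on both strands of the 250 bases before the start. The letters of the first and second motif share their last 6 positions and cannot match at the same place. Of 9968 tested genes with a promoter, 2.65% held the PU.1 core, 6% the ETS core and 4.38% the AP-1 motif. Among the 200 genes with the largest negative fold changes 153 had a promoter, and 10.5% of these (exact 95% interval 6.10% to 16.4%) held the PU.1 core, against 1.41% (0.171% to 5%) of 142 on the endothelial side and 2.16% of 2404 at a similar level. The ETS core was held by 1.96% on the macrophage side, by 0 of 142 on the endothelial side (0% to 2.56%) and by 8.44% of genes at a similar level. The AP-1 motif was held by 13.1% (8.17% to 19.5%) on the macrophage side, 8.45% (4.44% to 14.3%) on the endothelial side and 3.7% of genes at a similar level. These sets were chosen by their fold changes and the shares are descriptions of letters, not of binding; the intervals cover counting error only.

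The promoters of C1qc (chr4:136892915-136893164, minus strand), Ctsc (chr7:88277835-88278084, plus strand) and Eng (chr2:32646345-32646594, plus strand) are shown because each holds the PU.1 core once, on opposite sides of the comparison, and that of Stab1 (chr14:31168642-31168891, minus strand) because both lineages expressed it. Capitals mark the core, which in all 3 promoters is read on the opposite strand, and Stab1 holds none of the motifs in this window. The sequences are those of RefSeq, 5′ to 3′ on the strand of the gene.
C1qc: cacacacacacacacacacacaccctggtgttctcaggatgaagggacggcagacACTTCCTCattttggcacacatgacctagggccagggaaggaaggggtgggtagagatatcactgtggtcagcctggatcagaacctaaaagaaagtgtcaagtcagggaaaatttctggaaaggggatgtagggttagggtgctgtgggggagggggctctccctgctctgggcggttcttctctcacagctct
Ctsc: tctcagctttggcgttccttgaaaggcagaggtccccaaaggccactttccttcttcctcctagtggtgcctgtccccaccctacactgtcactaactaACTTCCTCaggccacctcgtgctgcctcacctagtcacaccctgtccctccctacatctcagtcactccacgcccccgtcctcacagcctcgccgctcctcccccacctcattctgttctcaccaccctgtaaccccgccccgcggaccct
Eng: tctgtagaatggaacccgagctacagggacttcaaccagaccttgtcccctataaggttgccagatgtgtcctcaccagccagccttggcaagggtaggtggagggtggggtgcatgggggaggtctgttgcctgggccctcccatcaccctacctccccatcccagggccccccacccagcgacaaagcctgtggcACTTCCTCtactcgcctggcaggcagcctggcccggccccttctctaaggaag
Stab1: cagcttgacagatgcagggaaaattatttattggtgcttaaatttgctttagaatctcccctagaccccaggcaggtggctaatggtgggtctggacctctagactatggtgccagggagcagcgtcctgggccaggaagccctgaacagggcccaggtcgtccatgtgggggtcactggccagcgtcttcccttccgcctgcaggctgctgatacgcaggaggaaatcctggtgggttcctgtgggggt

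Eng, the endothelial co-receptor endoglin, was at 293, 507, 57.8, 235 and 262 CPM in the endothelial libraries and at 2.36 to 17.1 CPM in the macrophage libraries (5.05 ± 0.29). It thus holds the same 8 letters as C1qc and Ctsc while lying on the other side of the comparison.

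A list of 36 genes described in both lineages, 35 of them in the matrix, held genes on both sides. Of the 35 tested 13 were higher and 17 lower in endothelial cells, beside 35.1% higher and 28.3% lower of all genes tested. The list median was -0.36, against 0.10 over all genes tested. Under library totals it turned to 0.41, against 0.87 over all genes tested. At a similar level were 7 genes, which means that the 95% interval of the difference lay within 2-fold and every library was at 10 CPM or above. Those 7 were Nrp1, Icam1 and the transcription factors Fli1, Elf1, Etv6, Ets2 and Mef2c. Under library totals Nrp1 (1.22), Icam1 (1.18), Fli1 (1.31) and Elf1 (1.06) were higher by more than 2-fold, so their similar level rests on the scaling. The estimates for Etv6 (0.41), Ets2 (0.74) and Mef2c (0.58) stayed under 2-fold. Mef2c, a MADS-box factor, was at 205, 140, 108, 205 and 185 CPM in endothelial libraries and 139 to 248 CPM in macrophages (-0.19 ± 0.16, adjusted p = 0.33, edgeR). Icam1, the ligand of leukocyte integrins, was at 984, 813, 199, 409 and 521 CPM against 222 to 652 CPM (0.42 ± 0.25, adjusted p = 0.15, edgeR), and it became called without the endothelial library of tumour 8.

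Several genes known from both lineages differed more widely. Cd34, Cd93, the lipoprotein receptor Scarb1 and the anticoagulant receptors Thbd and Procr were higher in endothelial cells by 8.47 ± 0.31, 2.67 ± 0.12, 2.73 ± 0.20, 1.64 ± 0.28 and 1.5 ± 0.21. Fcgr2b (-10.73 ± 0.35), F13a1 (-8.95 ± 0.62) and Msr1 (-8.63 ± 0.39), an inhibitory Fc receptor, a clotting factor subunit and a scavenger receptor, were lower. Vcam1, an adhesion molecule of inflamed endothelium, was at 67.4 ± 44.6 CPM in endothelial cells and 153 to 1349 CPM in macrophages (-2.89 ± 0.42).

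Over all genes, 2921 of 12463 (23.4%) were at a similar level, which is 66.4% of the 4401 genes at 10 CPM or above in all 20 libraries. Of these 2921, 1140 were also called different, with changes inside 2-fold, and 2781 genes were neither called nor shown to be similar. The highest at a similar level, ribosomal proteins aside, were Ppia, Fos, Ptma, Vim, Ly6e, Gnai2, Eef1a1, Ubb, Eif1 and Ldha, with log2 fold changes from -0.48 (Eif1, which turned positive under library totals) to 0.43 (Ly6e). Ly6e, an interferon-inducible surface protein, was at 1608 ± 612 CPM in endothelial cells but spread from 274 to 8567 CPM over the macrophage libraries. It was higher than in CD206neg by 1.75 ± 0.32 (adjusted p = 0.000139, edgeR), while the differences from CD206hi (-0.48 ± 0.32, adjusted p = 0.22, edgeR) and CD206pos (0.01 ± 0.32, adjusted p = 0.97, edgeR) did not pass. Of 79 ribosomal protein genes 74 were at a similar level (median -0.0012).

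The housekeeping lists lay close together. Of 14 proteasome core genes 13 and of 18 oxidative phosphorylation genes 16 were at a similar level. Small differences passed for 7 and 8 of them, all lower (medians -0.32 and -0.33), but under library totals the medians turned to 0.46 and 0.45, so their direction rests on the scaling. The members not at a similar level were the proteasome subunit gene Psma1 (-0.91 ± 0.12), the cytochrome oxidase subunit gene Cox5a (-1.31 ± 0.15) and the succinate dehydrogenase subunit gene Sdhb (-0.77 ± 0.13). Under library totals Cox5a kept its call (-0.54), whereas Psma1 (-0.14) and Sdhb (lower by less than 0.01) lost theirs. Of 20 cell cycle genes 4 were higher and 5 lower (median 0.03). The nucleotide synthesis gene Tyms was higher by 1.19 ± 0.18, whereas the replication licensing genes Mcm2, Mcm3 and Mcm5 were lower by 0.72 to 0.78 on the log2 scale, a direction that turned under library totals. The calls for Mcm2 and Mcm5 were lost without the endothelial library of tumour 8 or 10.

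Of 21 hypoxia and glycolysis genes 10 were higher and 6 lower (median 0.38), beside 35.1% higher and 28.3% lower of all genes tested. Epas1, which encodes the hypoxia factor HIF-2 alpha known from endothelium, was higher by 6.42 ± 0.31, and the prolyl hydroxylase Egln3 by 2.70 ± 0.26. Hk2, a hexokinase, was lower (-4.27 ± 0.49), as was Bnip3 (-1.90 ± 0.25), and Ldha, Pkm, Pgk1, Gapdh and Slc2a1 were at a level similar to the macrophage mean. For Pkm this held for the average only, since it was below CD206neg (-1.02 ± 0.29) and above CD206pos (1.14 ± 0.29). Slc2a1 was higher by 1.15 under library totals.

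MHC class I presentation leaned to macrophages, with 12 of 15 lower and Tap2 higher, the latter call lost without the endothelial library of tumour 5, 6 or 8 or the CD206neg library of tumour 11 (median -0.94, and -0.19 under library totals). B2m, the light chain of MHC class I, was at 1959 ± 747 CPM in endothelial cells and 3543 to 13390 CPM in macrophages (-1.87 ± 0.27). Interferon-stimulated genes counted 2 higher and 11 lower of 20 (median -0.45, or 0.32 under library totals). Isg15 was at a similar level, while Oas2 (-4.02 ± 0.51) and Oas3 (-5.56 ± 0.83), sensors of double-stranded RNA, were lower. Immediate early genes, which also respond to tissue dissociation, counted 4 higher and 9 lower of 17 (median -0.61, or 0.15 under library totals). Fos was at 3177 ± 459 CPM in endothelial cells and 1104 to 8382 CPM in macrophages (0.11 ± 0.25), Jun was higher by 1.13 ± 0.27, a call lost without the tumour block, and Egr2 lower (-2.80 ± 0.28).

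Of 20 actin cytoskeleton genes 14 were lower (median -1.09), led by the leukocyte coronin Coro1a (-8.96 ± 0.42) and the plastin Lcp1 (-3.52 ± 0.25), and 4 were higher, among them Tmsb10 (3.51 ± 0.24) and the non-muscle myosin Myh10 (2.18 ± 0.18).

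Cytokine, chemokine and adhesion genes fell on both sides. Of 18 chemokines 15 were lower and 3 higher, the retention factor Cxcl12 (6.96 ± 0.30), the membrane-bound Cx3cl1 (3.47 ± 0.28) and Cxcl9 (1.6 ± 0.51). The call for Cxcl9 was lost without the endothelial library of tumour 5 (0.86, adjusted p = 0.0947, edgeR) and without the tumour block (adjusted p = 0.0606, edgeR). Of 20 inflammatory cytokines and receptors 15 were lower, led by Osm and Il1b (-10.92 ± 0.62), and 5 were higher, namely Osmr (5.25 ± 0.51), Il1r1 (5.16 ± 0.52), Il6 (3.58 ± 0.29), Il6st and Tnfrsf1a (0.70 ± 0.13). Il6 was at 524, 333, 280, 223 and 447 CPM in endothelial libraries and 5.97 to 110 CPM in macrophages, without overlap. Of 15 adhesion genes 8 were lower, among them the leukocyte integrins Itgam (-10.91 ± 0.48) and Itgb2 (-8.54 ± 0.24) and the selectin ligand Selplg (-9.64 ± 0.37). The 6 higher genes included the selectins and the junction gene Jam3 (9.45 ± 0.33). Vcam1, an adhesion molecule of inflamed endothelium, was among the lower genes, and Icam1 was not called, with the values given above.

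Of 33 ligand and receptor genes tested 17 were higher and 15 lower in endothelial cells, and Egfr was not called. Csf1, the growth factor of macrophages, was at 24.2, 25.1, 15.1, 11 and 24.6 CPM in endothelial libraries and at 1.63 to 59.2 CPM (median 13.3) in macrophages, with means of 13.6 in CD206hi, 28.4 in CD206neg and 6.39 in CD206pos. The groups overlapped, and the call (0.71 ± 0.26, adjusted p = 0.023, edgeR) was lost under 10 of 36 alternatives, among them the endothelial libraries of tumours 6, 10 or 11 left out. Its receptor Csf1r was at 0.744, 2.60, 0.593, 0.920 and 0.571 CPM in endothelial libraries against 578 to 4401 CPM (-10.84 ± 0.65).

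Vegfa, the ligand of Kdr and Flt1, was at 28.3, 17.3, 30.3, 9.20 and 7.17 CPM in endothelial libraries and 15 to 256 CPM (median 77.9) in macrophages, with CD206neg the highest population (169 CPM), and it fell by 2.26 on the log2 scale (SE 0.31, adjusted p = 3.9e-06, edgeR). Kdr was at 417, 295, 170, 373 and 378 CPM in endothelial libraries and at most 3.86 CPM in a macrophage library. The related ligand Pgf (3.62 ± 0.26) and the angiopoietin Angpt2 (7.71 ± 0.38) were higher in endothelial cells, as were Apln and its receptor Aplnr (6.67 ± 0.30). Ligands thus lay on the macrophage side for Vegfa and on the endothelial side for Pgf, Angpt2 and Apln.

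Cx3cl1 and its receptor Cx3cr1 (-10.83 ± 0.49) lay on opposite sides, as did Il1b and Il1r1, Tnf (-8.15 ± 0.43) and Tnfrsf1a, Osm and Osmr, and Igf1 (-1.14 ± 0.30, a call lost under library totals) and Igf1r (2.01 ± 0.27). Gas6 (-2.70 ± 0.27) and its receptors Axl (-4.08 ± 0.56) and Mertk (-4.82 ± 0.41), which serve the uptake of dying cells, were all lower in endothelial cells. Ccr2, the receptor of Ccl2, averaged 0.0192 CPM in endothelial cells and was at 8.51 to 439 CPM in macrophages, and Ccl2 itself was lower (-5.63 ± 0.61). Pdgfb was higher by 0.63 ± 0.20, a call lost without the endothelial library of tumour 10 and without the tumour block, and its receptor Pdgfrb, a pericyte gene, by 3.99 ± 0.60 at 54.0 ± 62.9 CPM, beside the pericyte marker sums given above.

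**Figure D4:**
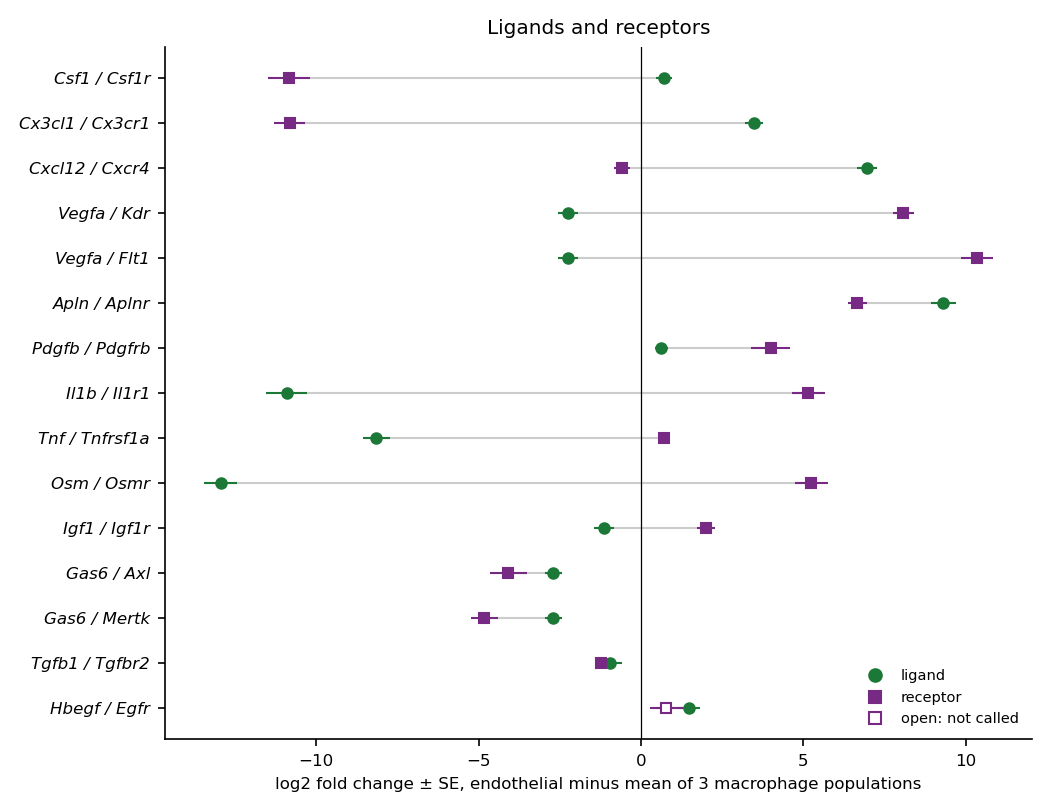
log2 fold change ± SE (endothelial minus the mean of the 3 macrophage populations) of ligands (circles) and receptors (squares) joined by pair, with an open symbol where the gene was not called. Csf1r, Cx3cr1, Il1b, Tnf and Osm lie far on the macrophage side, opposite their partners, Egfr, at 0.78, is the open symbol, and Cxcr4 turns positive with library totals.

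Against single populations, 6855 genes (55%) differed from CD206hi, 7196 (57.7%) from CD206neg and 7198 (57.8%) from CD206pos. These contrasts share the endothelial libraries. For 31 genes (0.249%) the direction depended on the population, the endothelial level being at least 2-fold above 1 macrophage population and at least 2-fold below another, each called at an adjusted p under 0.05 (edgeR). Of these, 17 lay above CD206neg and below both CD206 populations, 6 above CD206neg and below CD206hi, and 4 above CD206neg and below CD206pos. The remaining genes were Pkm and Htr2b, above CD206pos and below CD206neg, Tle1, above both CD206 populations and below CD206neg, and Tmem154, above CD206hi and CD206neg and below CD206pos. Leaving tumour 11 out of every group left 20 genes.

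Lyve1, a hyaluronan receptor of lymphatic endothelium and of perivascular macrophages, showed this most. It was at 8.56, 0.577, 18.8, 12.5 and 19.3 CPM in the endothelial libraries, at 482, 294, 58.3, 178 and 421 CPM in CD206hi, at 0.602, 0, 0.429, 0.417 and 1.59 CPM in CD206neg and at 500, 76.9, 48.0, 61.6 and 116 CPM in CD206pos. Endothelial cells lay below every library of both CD206 populations, and the library of tumour 6 was alone in reaching the CD206neg range. The log2 fold changes were -4.38 ± 0.69 against CD206hi, 4.61 ± 0.91 against CD206neg and -3.24 ± 0.66 against CD206pos, which averaged to -1.0 ± 0.63 and no call (adjusted p = 0.18, edgeR). Without the endothelial library of tumour 8 that average was called (-1.73, adjusted p = 0.0151, edgeR), as it was by voom with quality weights (-1.56) and by limma on the authors' values (-1.57). The average hid a difference in both directions.

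Fcgrt encodes the neonatal Fc receptor, which recycles antibody and albumin in endothelium and in macrophages. It was at 236, 322, 201, 210 and 276 CPM in endothelial libraries, between CD206neg (56.2, 124, 63.1, 74.9 and 122 CPM) and CD206hi (1192, 2045, 675, 1501 and 5821 CPM) or CD206pos (1671, 1357, 608, 1341 and 2314 CPM). No endothelial library overlapped any macrophage population. The log2 fold changes were -2.84 ± 0.32, 1.58 ± 0.30 and -2.43 ± 0.31 against CD206hi, CD206neg and CD206pos.

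The other genes named for this pattern were Chp2, Tslp, Csf2, Gda, Rcn3 and Nupr1, all above CD206neg and below both CD206 populations. Tslp, an epithelial cytokine, averaged 3.45 CPM in endothelial cells, 21.6 in CD206hi, 0.147 in CD206neg and 15.4 in CD206pos. Gda, the guanine deaminase, averaged 36.6, 136, 8.24 and 189 CPM in the same order. Rcn3, a protein of the endoplasmic reticulum also made by fibroblasts, averaged 47.5 ± 42.2 CPM in endothelial cells, highest in tumour 8.

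**Figure D5:**
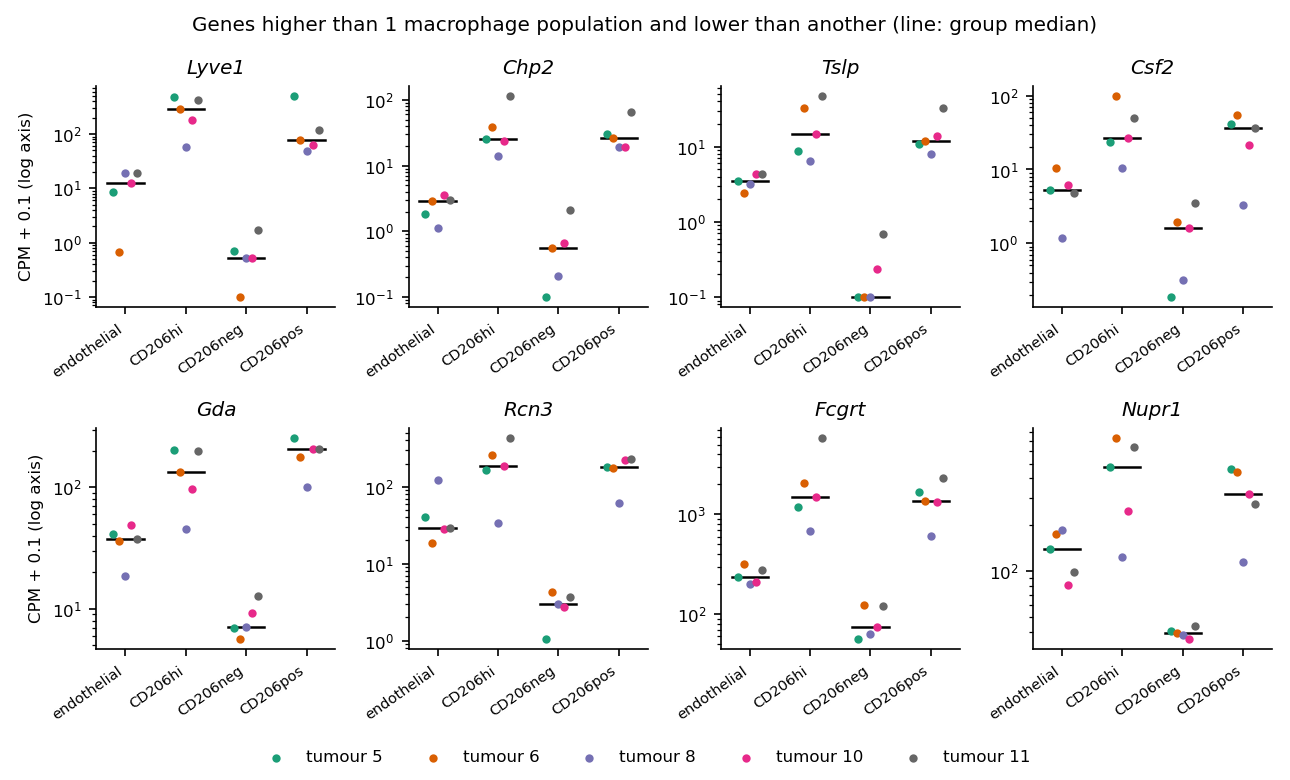
CPM plus 0.1 on a log axis in each of the 20 libraries for the 8 genes named for lying between the macrophage populations, 1 panel a gene, coloured by tumour, with a line at the group median. In each panel the endothelial median lies above that of CD206neg and below those of CD206hi and CD206pos.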

How the data were processed

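Endothelial and macrophage populations were sorted from 5 mammary tumours, digested with collagenase I and DNase I, and their RNA was amplified with SMARTseq v4, per the labels' protocols. The submitters' processing notes name Trimmomatic 0.36, HISAT2 2.0.4, SAMtools 1.3.1, DESeq2 1.26 and mm10. How reads were assigned to genes (program, strandedness and gene models) is a step the labels and notes do not describe, so reads of overlapping or antisense genes could not be told apart. The deposited raw values are counts of reads per gene (14118 genes in the matrix, 14104 with a symbol). The authors' normalised values are a linear signal, the same counts divided by 1 factor per library, and were used in an alternative only.

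Libraries were grouped by their labels. Low genes were removed by filterByExpr, libraries were given TMM factors, and edgeR 4.0.16's quasi-likelihood F test was run in R 4.3.3, with group and tumour as terms over 20 libraries and Benjamini-Hochberg adjustment over all 12463 genes tested (adjusted p under 0.05). The populations of a tumour come from 1 animal, and the correlation of deviations between endothelial and macrophage libraries of the same tumour was 0.0572 to 0.35 (median 0.173). Between libraries of different tumours it was -0.272 to 0.233 (median -0.04), so the ranges overlapped. SE is the size of the log2 difference fitted without the prior count, divided by the square root of F. Intervals of a difference are centred on that fit. The log2 fold changes printed include the prior count, so for genes near 0 counts on one side the SE belongs to another estimate. Intervals are at 95%. On simulated counts (12247 genes, in the layout of this comparison) the test found 83% of 2-fold and 100% of 4-fold changes, with 4.69% false among its calls. The simulation changed 100 genes 2-fold and 100 genes 4-fold, equally up and down, with the same dispersion for every gene and no tumour effect. Far more genes differ in the data, and the lineages differ in composition, so 4.69% is not an estimate of the false share among the calls reported here. Alternatives used DESeq2 1.42.0 and limma 3.58.1. Where no library of one side holds more than 3 counts, levels are given without a fold.

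Named genes are the sort markers, the 10 largest differences of each direction (10 CPM on the higher side, a mean of 2 counts on the lower, 5 of 5 tumours alike), the 5 highest genes counted on 1 side, the 10 highest at a similar level, 8 between the macrophage populations, in each list the 3 called members that moved furthest each way and those at a similar level, and all members of the shared and of the ligand and receptor lists. The comparison and the 36 lists were chosen with earlier results of these data known. Other list members named were chosen after their values were seen. One list is not reported here. Coordinates are those of RefSeq on GRCm38.p6, the assembly of mm10.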

Additional observations from a re-analysis of the deposited data

Results flagged for a closer look

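Each group of 5 libraries was searched for 1 value far from the others by Dixon's ratio on the log2 scale, over the genes with values by library and the marker sums of other cell types (161 groups). Chance marks about 1 in 20 groups, and 8 were marked. In the endothelial library of tumour 8, Pecam1 (259 CPM, others 593 to 829), Fli1 (43.7 CPM, others 85.0 to 102), Emcn (297 CPM, others 789 to 969) and Robo4 (85.0 CPM, others 232 to 271) were the lowest, and the summed T, NK and B cell markers the highest (1.56 CPM, others 0 to 0.163). In the endothelial library of tumour 6, Lyve1 was the lowest (0.577 CPM, others 8.56 to 19.3) and Csf1r the highest (2.60 CPM, others 0.571 to 0.920). Osm in the CD206hi library of tumour 11 was at 2842 CPM, with the others at 1265 to 1409 CPM.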

How the results depend on the processing

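Without the replicate block 4035 genes were higher and 3244 lower, and 28 named genes lost their call. DESeq2, RLE factors, no filter, a stricter filter, robust dispersion, voom, limma on the authors' values, the fit of 30 libraries and the fit without the CD206neg libraries of tumours 6 and 8 kept within 1.5 times the counts of genes higher and lower in the 4 contrasts, at a similar level and between the populations; genes on 1 side only and motif shares were not recomputed under these settings. Testing against a 2-fold limit left 2230 higher and 1732 lower against the macrophage mean, 1916 and 1647 against CD206hi, 2140 and 1655 against CD206neg, 2043 and 1717 against CD206pos, and 7 genes between the populations. Library totals, an alternative added after the data were seen, gave 7983 and 1787, 6764 and 1739, 7629 and 1549, and 6896 and 1809 in the same order, and 1682 genes at a similar level. Leaving out 1 library or tumour gave 3737 to 4644 higher and 3175 to 3608 lower against the mean, 2922 to 3926 and 2841 to 3311 against CD206hi, 3196 to 4100 and 2953 to 3424 against CD206neg, 3141 to 4052 and 2963 to 3415 against CD206pos, 2777 to 2992 at a similar level and 20 to 37 between the populations (20 without tumour 11). Genes on 1 side only numbered 64 to 89 on the endothelial and 43 to 61 on the macrophage side with a tumour left out (61 without tumour 6), and 13 and 7 at a minimum of 50 CPM. Genes at a similar level numbered 1490 with an interval within 1.5-fold and 4702 at a minimum of 1 CPM. With 100 genes a side the motif shares stayed inside the intervals of the 200. Rcn3, not called (0.07), ranged from -0.85 without the endothelial library of tumour 8 to 0.44 without that of tumour 6, and was called lower in the first case and without tumour 8 (-0.77). At this depth genes under about 1 CPM on both sides could not be compared.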
